A study of Mus musculus with 2 samples.

Results

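Interferon-responding valve interstitial cells are the fibroblast-like cells of the mitral valve leaflet in which interferon-stimulated genes were high. They were chosen by a fixed rule: of the valve barcodes with at least 1000 UMIs (unique molecular identifiers, each standing for 1 captured transcript), at least 500 genes and at most 20% mitochondrial UMIs, those with at least 1% of their UMIs from Dcn, Col1a1, Col1a2 and Col3a1 were taken as interstitial, and interstitial cells with at least 15 UMIs summed over Ifit1, Ifit3 and Isg15 were called responding. The rule found 935 responding cells among 15324 interstitial cells, of 18630 barcodes that passed the filters and 19253 in all. There were 627 responding cells in the Fbn1 C1039G/+ library and 308 in the WT library. They were set against the 6079 and 6464 interstitial cells with at most 3 such UMIs in the same libraries, called low cells here, and 1062 and 784 interstitial cells lay between. The summed UMIs of Ifit1, Ifit3 and Isg15 chose the cells, so their levels, and every other gene in the contrast between responding and low cells, are given as a description with no test.

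The study profiled all cells of dissected mitral valves from mice heterozygous for Fbn1 C1039G, pooled from 3 animals, and from Fbn1 +/+ mice (WT), pooled from 5 animals. All were C57BL/6J and 1 month old. C1039G is a cysteine substitution in fibrillin-1, an extracellular microfibril protein, and the heterozygous mouse is used as a model of Marfan syndrome; the allele is germline, so every cell carries it. Anterior and posterior leaflets were digested to single cells and captured in droplets with the 10x Genomics 3′ kit, 1 library per genotype.

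Type I interferons bind the receptor pair Ifnar1 and Ifnar2, and interferon gamma binds Ifngr1 and Ifngr2. Both receptors act through JAK kinases on STAT proteins, and a complex that holds Stat2 and Irf9 turns on a large set of antiviral genes, among them the genes of the rule. Isg15 is a ubiquitin-like protein, Ifit1 binds foreign RNA, and Ifit3 is a protein of the same family. Rsad2 (viperin) makes a chain-terminating nucleotide, and Irf7 is the transcription factor that carries the response on to further interferon genes.

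The 2 libraries held 103663375 UMIs for Fbn1 C1039G/+ and 100969482 for WT, with a median of 9815.5 and 9917.5 UMIs per barcode that passed the filters. The libraries shared 17 barcode sequences, under 0.18% of either, and no barcode of a responding cell was shared. With 1 library per genotype there is no replicate, so no p-value is given, and the 95% intervals cover counting error only. The 3′ counts do not read the C1039G change, so they cannot check the genotype labels; Fbn1 itself had 499.6 CPM (UMIs of the gene per 1000000 UMIs of the summed cells) in Fbn1 C1039G/+ responding cells and 424 CPM in WT responding cells. The label of the cells was checked with 2 marker genes that the rule did not use. Rsad2 had 58.1 CPM in Fbn1 C1039G/+ responding cells against 1.06 CPM in low cells of that library, and 254 CPM in WT responding cells against 1.11 CPM in WT low cells. For Irf7 the levels were 277 CPM in Fbn1 C1039G/+ responding cells against 22.1 CPM in low cells of that library, and 212 CPM in WT responding cells against 14.5 CPM in WT low cells. Both markers were thus higher in responding cells in each library, although 66.8% of Fbn1 C1039G/+ and 55.5% of WT responding cells held no Rsad2 UMI, against 99.0% and 98.9% of low cells.

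Promoters of the genes that define the cells are shown because the binding sites of the STAT and IRF factors lie there. Each line gives the 250 bases before the gene's start from RefSeq on GRCm38.p6, read 5′ to 3′ on the gene's own strand. Capitals mark matches to the core of the interferon-stimulated response element, GAAA, any 2 bases and GAAA again, or to its reverse complement, TTTC, any 2 bases and TTTC.
Isg15 (chr4:156200819-156201068, minus strand): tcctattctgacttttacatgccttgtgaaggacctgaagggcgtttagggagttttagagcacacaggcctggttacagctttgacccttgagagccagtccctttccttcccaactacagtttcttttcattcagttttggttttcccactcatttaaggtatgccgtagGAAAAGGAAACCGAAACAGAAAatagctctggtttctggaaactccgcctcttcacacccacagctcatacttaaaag
Ifit1 (chr19:34640639-34640888, plus strand): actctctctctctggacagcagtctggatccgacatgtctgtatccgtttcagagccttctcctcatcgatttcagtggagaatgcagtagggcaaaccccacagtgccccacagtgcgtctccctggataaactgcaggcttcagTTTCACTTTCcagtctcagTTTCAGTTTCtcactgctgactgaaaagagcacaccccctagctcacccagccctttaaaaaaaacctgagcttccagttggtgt
Ifit3 (chr19:34583279-34583528, plus strand): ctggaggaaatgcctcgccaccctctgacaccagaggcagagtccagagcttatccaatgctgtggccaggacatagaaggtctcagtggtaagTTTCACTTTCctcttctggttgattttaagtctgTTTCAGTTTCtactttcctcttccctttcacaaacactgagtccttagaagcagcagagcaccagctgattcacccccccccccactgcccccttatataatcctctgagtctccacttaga
Rsad2 (chr12:26456453-26456702, minus strand): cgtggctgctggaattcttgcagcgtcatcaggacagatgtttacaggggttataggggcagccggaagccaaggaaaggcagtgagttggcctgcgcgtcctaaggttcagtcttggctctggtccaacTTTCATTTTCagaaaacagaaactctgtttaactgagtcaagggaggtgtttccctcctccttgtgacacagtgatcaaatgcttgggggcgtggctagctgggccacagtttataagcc
Bst2 (chr8:71537473-71537722, minus strand): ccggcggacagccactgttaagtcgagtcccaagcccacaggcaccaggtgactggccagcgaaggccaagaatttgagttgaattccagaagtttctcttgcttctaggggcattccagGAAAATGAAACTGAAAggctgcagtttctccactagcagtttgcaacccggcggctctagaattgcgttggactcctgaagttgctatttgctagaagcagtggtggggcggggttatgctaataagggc
Isg15 carried 3 overlapping matches that start 78, 72 and 66 bases before the gene's start. Ifit1 carried 2, read as the reverse complement, 104 and 85 bases before the start, and Ifit3 carried 2 of the same kind at 156 and 122 bases. Rsad2 had 1 reverse match, at 120 bases, and Bst2 had 2 that overlap, at 130 and 124 bases. No match to these letters was found in the window of Irf7.

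Across all 32851 RefSeq windows of 250 bases before to 50 bases after a start, 1131 (3.44%) held the motif on either strand. Of the 20 genes with the largest contrast between responding and low cells, 17 had a window and 9 of these (52.9%) held it. The 9 include the rule's genes Isg15, Ifit1 and Ifit3, and Ifit3b, whose 2 matches have the same letters as those of Ifit3. The rule's genes are also in the counts of higher genes and of the antiviral list that follow. Counted per gene with a window, and in any of its windows, the motif was in 59 of 198 genes (29.8%) at least 1.5-fold higher in responding cells. It was in 12 of 25 of the antiviral list and in 7 of 9 of the GTPase list described further on. None of 15 collagen genes held it, but at the share among measured genes given next, 15 genes would hold few or no matches. Fbn1 had 1 reverse match, 97 bases before its start. Among all genes measured in these cells, 237 of 5512 with a window (4.30%) held the motif, and among all genes with a window 1079 of 27025 (3.99%). A match is a description of the letters and was not tested as a binding site.

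Responding cells made up 8.07% (7.48% to 8.70%) of interstitial cells in the Fbn1 C1039G/+ library and 4.08% (3.64% to 4.55%) in the WT library (exact Clopper-Pearson intervals). The ratio was 1.98 (1.73 to 2.26) and the difference 4.0 percentage points (3.24 to 4.75), with a log-normal interval for the ratio and a Newcombe interval for the difference. Depth of the cells hardly moved it: after each cell was thinned to 5000 UMIs, with at least 8 summed UMIs as the rule and 621 Fbn1 C1039G/+ and 174 WT cells left out as too shallow, the shares were 7.32% and 3.55%, a ratio of 2.06 (1.78 to 2.38). With 3 and 5 pooled mice behind the libraries, a difference between genotypes and a difference between single mice cannot be told apart.

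**Figure D1:**
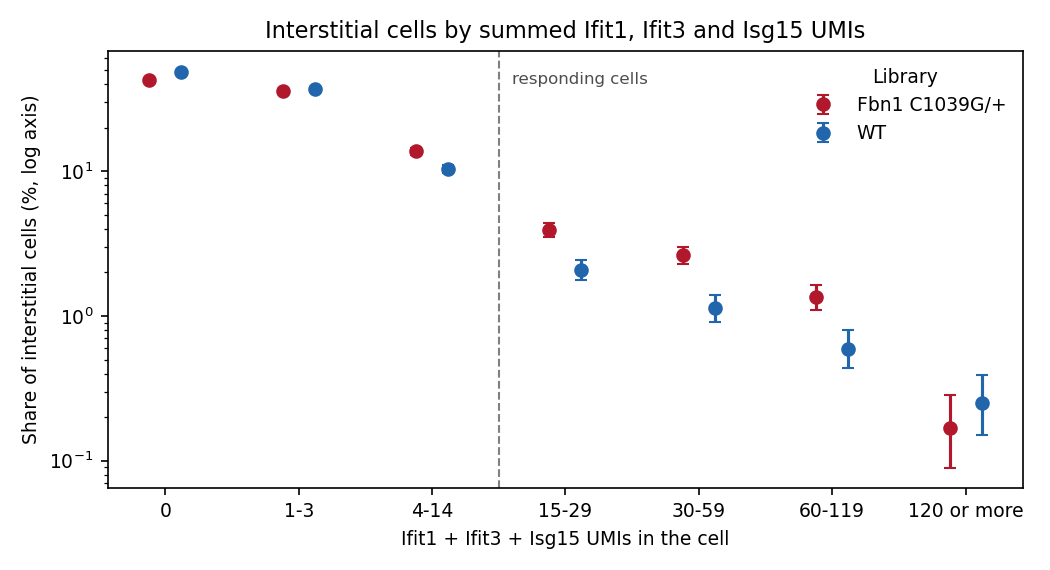
Share of interstitial cells (y, percent, log axis) by the summed Ifit1, Ifit3 and Isg15 UMIs of the cell (x) in the Fbn1 C1039G/+ and WT libraries, with exact 95% intervals; the dashed line is the rule's threshold of 15. The Fbn1 C1039G/+ share is the higher one from 4 to 119 UMIs, and the intervals overlap at 120 UMIs or more.

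The sum had no gap at the threshold. Cells without a UMI of the 3 genes were 42.6% of Fbn1 C1039G/+ and 48.3% of WT interstitial cells, and cells with 4 to 14 UMIs were 13.7% and 10.4%. Between 15 and 29 UMIs the shares were 3.93% and 2.09%, and between 60 and 119 UMIs 1.35% and 0.596%. At 120 UMIs or more there were 13 Fbn1 C1039G/+ and 19 WT cells, 0.167% (0.0891% to 0.286%) and 0.251% (0.151% to 0.392%), so the excess seen at lower sums was not seen among the cells with the highest sums. The highest sum in 1 cell was 238 UMIs in Fbn1 C1039G/+ and 297 in WT.

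Cells just inside and just outside the threshold had median depths between 11628 and 11939.5 UMIs. In the Fbn1 C1039G/+ library the 83 cells with 15 to 17 UMIs had 158 CPM of Irf7 and 1167 CPM of Bst2, and the 140 cells with 12 to 14 UMIs had 128 and 885 CPM. In the WT library the 53 cells just inside had 107 CPM of Irf7 and 419.9 CPM of Bst2, and the 83 cells just outside had 85.2 and 442 CPM. Responding cells as a whole had more UMIs, with a median of 12011 in Fbn1 C1039G/+ and 11815 in WT, against 9654 and 9898.5 in low cells. A rule on raw UMIs favours deeper cells.

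The responding cells were mostly male. Cells were called female with at least 2 UMIs of Xist, the X-inactivation RNA, and no UMI of the Y-linked genes Ddx3y, Eif2s3y, Uty and Kdm5d, and male with no Xist UMI and at least 1 UMI of the Y-linked genes. In the Fbn1 C1039G/+ library 382 of 2920 male interstitial cells were responding (13.1%, 11.9% to 14.4%), against 107 of 3598 female cells (2.97%, 2.44% to 3.58%). In the WT library 187 of 3130 male cells (5.97%, 5.17% to 6.86%) and 60 of 3418 female cells (1.76%, 1.34% to 2.25%) were responding. The share in male cells was thus 4.40 times (3.57 to 5.42) that in female cells in Fbn1 C1039G/+ and 3.40 times (2.56 to 4.53) in WT, and 5.25 and 3.67 times after thinning to 5000 UMIs. Of cells with a sex call, 78.1% of Fbn1 C1039G/+ and 75.7% of WT responding cells were male, against 54.1% and 55.8% of cells between and 40.1% and 45.6% of low cells. Median depth was 10764.5 UMIs in male and 9525 in female interstitial cells of Fbn1 C1039G/+, and 10471 and 9763.5 in WT.

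Within each sex the Fbn1 C1039G/+ library had the larger share of responding cells. The ratio to WT was 2.19 (1.85 to 2.59) among male cells and 1.69 (1.24 to 2.32) among female cells. Both libraries held cells of both sexes, so in the pool of 3 Fbn1 C1039G/+ mice 1 sex came from 1 mouse, and sex and single mice cannot be told apart. UMIs of both Xist and a Y-linked gene were in 12.8% and 12.7% of responding cells, against 4.46% and 4.39% of low cells, and their part in the sex difference was not tested.

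**Figure D2:**
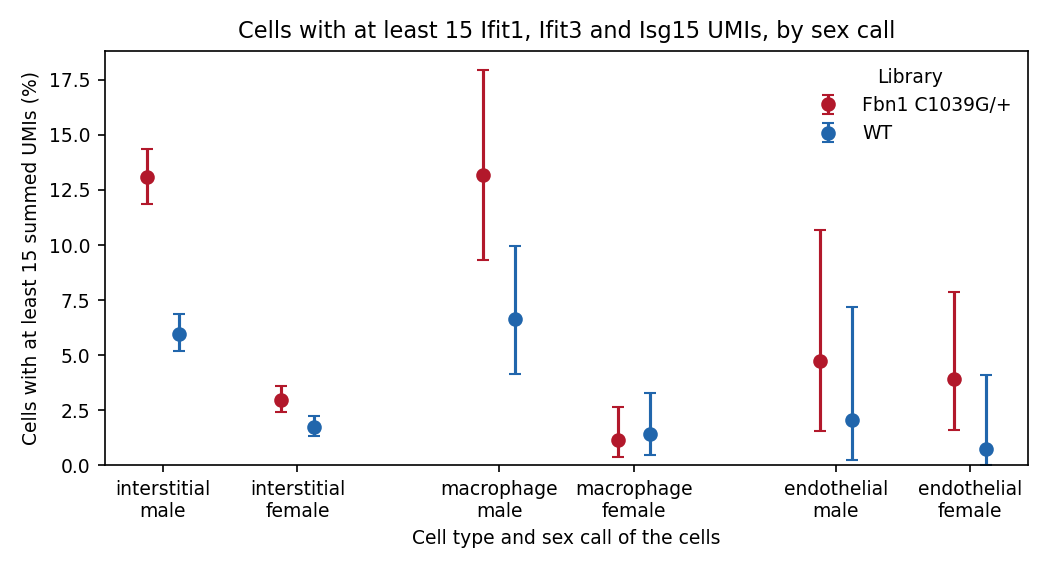
Percent of cells with at least 15 summed Ifit1, Ifit3 and Isg15 UMIs (y) by cell type and sex call (x), for the Fbn1 C1039G/+ and WT libraries, with exact 95% intervals. Male interstitial cells and male macrophages of Fbn1 C1039G/+ stand at 13.1% and 13.2%, and the female cells of both types at or below 2.97% in both libraries.

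The same sum was also high in some macrophages, and with the same skew. Macrophages were taken as cells outside the interstitial rule whose UMIs of macrophage markers such as C1qa, Csf1r and Lyz2 exceeded those of the other marker lists and reached at least 5. In Fbn1 C1039G/+, 34 of 258 male macrophages (13.2%) and 5 of 440 female macrophages (1.14%) had at least 15 UMIs of the rule's genes. In WT, 21 of 317 male (6.62%) and 5 of 353 female macrophages (1.42%) did. Of endothelial cells, 15 of 332 (4.52%, 2.55% to 7.34%) in Fbn1 C1039G/+ and 5 of 262 (1.91%, 0.622% to 4.40%) in WT did. By sex these were 5 of 106 male and 7 of 179 female cells in Fbn1 C1039G/+, and 2 of 98 and 1 of 134 in WT. Melanocytes had 7 of 82 (8.54%) in Fbn1 C1039G/+ and 3 of 118 (2.54%) in WT, and dendritic cells 6 of 72 (8.33%) and 3 of 65 (4.62%).

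The genes behind the sum differed between the libraries. Isg15 gave 56.3% of the summed UMIs of Fbn1 C1039G/+ responding cells and 38.3% of those of WT responding cells. Ifit1 gave 14.9% and 25.5%, and Ifit3 28.8% and 36.2%. Isg15 was the highest of the 3 genes, ties included, in 491 of 627 Fbn1 C1039G/+ cells (78.3%) and in 153 of 308 WT cells (49.7%). Across responding cells, the share of UMIs given to Irf7 and to Bst2, a membrane protein that tethers budding virus, had a Spearman correlation of 0.58 in Fbn1 C1039G/+ (n = 627) and 0.52 in WT (n = 308), while that of Ifit1 and Bst2 was -0.02 and -0.01. These cells come from 1 library each, differ in depth and were selected on Ifit1, so the correlations only describe them.

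For the contrast of responding with low cells, UMIs were summed over the cells of a class in each library, 9373744 and 4274753 UMIs for responding cells and 62543472 and 68207170 for low cells. A gene was measured with at least 20 CPM in 1 of the classes and 50 UMIs in all, and was called with a CPM ratio of at least 1.5 and a 95% interval that excluded 1 in each library. Of 6905 measured genes, 257 (3.72%) were higher in responding cells in both libraries and 10 (0.145%) were lower in both. Taken library by library, 4.26% were higher and 0.854% lower in Fbn1 C1039G/+, and in WT 5.34% were higher and 0.999% lower. The rule chose the cells on this contrast, so nothing is read from these counts. The 20 leading genes were Isg15, Ifit1, Ifi44, Rsad2, Ifit3, Cxcl10, Ifit3b, Zbp1, Usp18, Irf7, Ifi47, Oasl2, Slfn8, Phf11d, Ms4a4c, Oasl1, Phf11b, Gbp6, Mndal and Cmpk2. Reads of Ifit3 and its near-identical neighbour Ifit3b could be split between them, so the level of each is uncertain. Ms4a4c, a monocyte marker, had UMIs in 23 Fbn1 C1039G/+ and 19 WT responding cells, and the 5 highest cells held 46.2% and 66.9% of them. Without cells holding at least 3 UMIs of markers of other cell types, Ms4a4c among them, it was no longer called. It then had 0.452 against 0.185 CPM in Fbn1 C1039G/+, and no UMI in WT responding cells against 0.135 CPM in low cells.

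**Figure D3:**
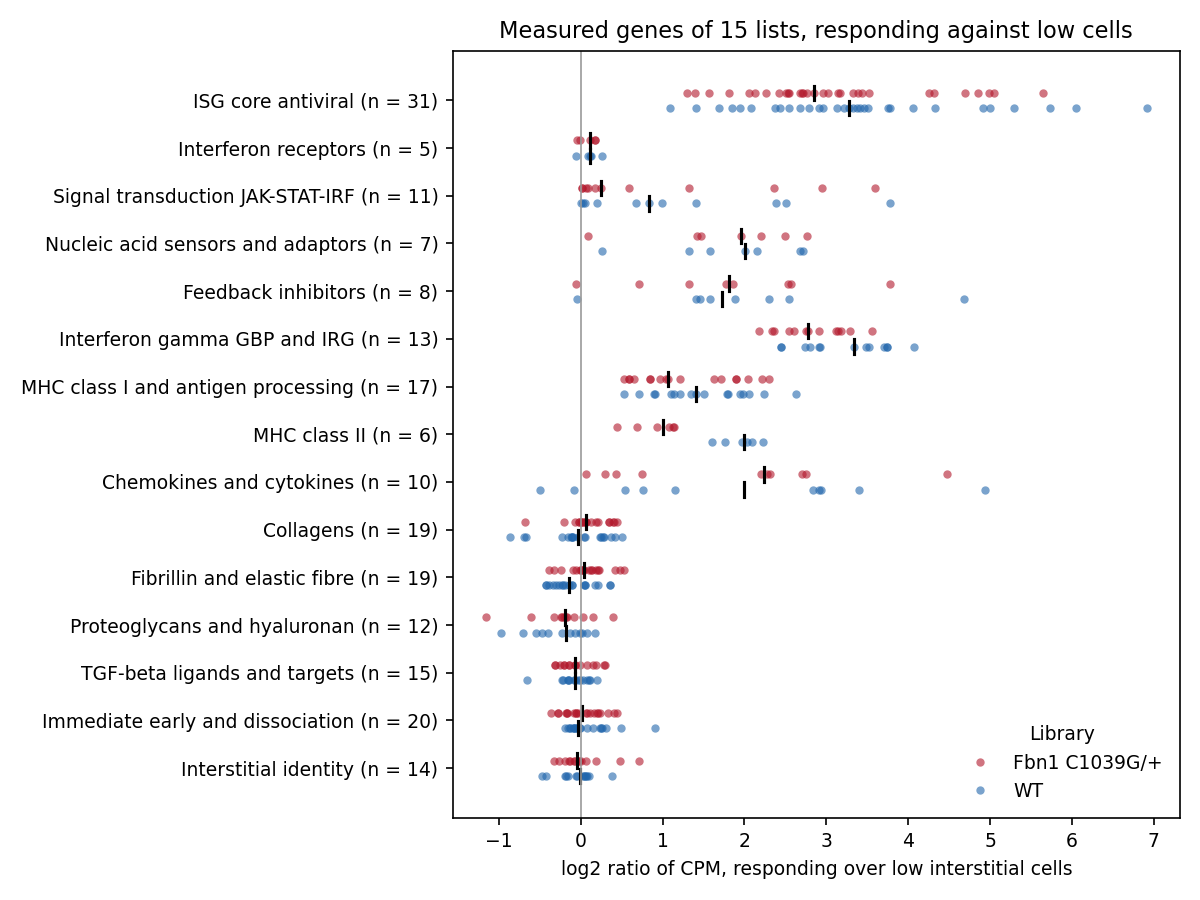
log2 ratio of CPM in responding over low interstitial cells (x) for every measured gene of 15 lists (y, with the number measured), Fbn1 C1039G/+ above WT; black bars are list medians. Antiviral genes and GTPases centre near 3, MHC class I genes near 1, and receptors, collagens and interstitial identity genes near 0.

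Few interferon genes were detected. Of 21 interferon genes looked for, 18 had no UMI in any cell that passed the filters. Ifnb1, the type I interferon made first after a virus is sensed, had 8 UMIs in 1 Fbn1 C1039G/+ responding cell and 3 UMIs in 1 Fbn1 C1039G/+ macrophage, and none in WT. The responding cell was female, with 13880 UMIs and 60 UMIs of the rule's genes, 15 of Rsad2 and 1 of macrophage markers. Ifng, the T and NK cell interferon, had 55 UMIs in 23 of 61 Fbn1 C1039G/+ T and NK cells and 297 UMIs in 68 of 139 WT T and NK cells, and no UMI in responding cells of either library. Other interstitial cells held 15 Ifng UMIs in 5 cells of Fbn1 C1039G/+ and 47 in 17 cells of WT. Ifnz had 1 UMI in 1 Fbn1 C1039G/+ responding cell, and 8 UMIs in Fbn1 C1039G/+ and 13 in WT among other interstitial cells. Interferon protein, and interferon from cells outside the valve, were not measured.

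None of the 5 measured receptor genes met the 1.5-fold rule. Ifnar1 had 43.1 CPM in Fbn1 C1039G/+ responding cells against 43.5 CPM in low cells of that library, and 38.6 CPM in WT responding cells against 40.3 CPM in WT low cells. Ifngr1 likewise had 141 against 146 CPM in Fbn1 C1039G/+ and 161 against 149 CPM in WT.

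Of 11 measured genes of signal transduction, 5 were higher in responding cells of both libraries, among them the factors Stat2, Irf9, Irf7 and Irf1. Stat2 had 81.3 CPM in Fbn1 C1039G/+ responding cells against 15.0 CPM in low cells of that library, and 83.5 CPM in WT responding cells against 15.2 CPM in WT low cells. It was 5.43-fold (4.92 to 5.98) higher in Fbn1 C1039G/+ and 5.5-fold (4.86 to 6.21) higher in WT, and Irf9 was 2.56-fold and 2.71-fold higher. Irf1, which also answers to interferon gamma, was 1.53-fold (1.34 to 1.74) and 1.61-fold (1.41 to 1.84) higher. The kinases Jak1 and Jak2 and the factors Stat3 and Irf3, which are present before a response, had ratios between 0.998 and 1.14 in the 2 libraries. Irf2 and Irf8 were also not called, and the medians of the 11 genes were 0.25 in Fbn1 C1039G/+ and 0.83 in WT (log2). Without cells holding at least 3 UMIs of markers of other cell types, Irf2 had 60.8 against 49.5 CPM in Fbn1 C1039G/+ and 101 against 54.3 CPM in WT. Irf8 then had 17.2 against 17.4 CPM in Fbn1 C1039G/+ and 11.6 against 11.6 CPM in WT.

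Sensors of nucleic acid were higher in 6 of 7 measured, and 3 of the 7 passed the measuring filter in low cells alone. Ifih1 (MDA5), a sensor of long double-stranded RNA, had 94.7 CPM in Fbn1 C1039G/+ responding cells against 15.96 CPM in low cells of that library, and 109 CPM in WT responding cells against 15.7 CPM in WT low cells. Ddx58 (RIG-I) was 3.97-fold higher in Fbn1 C1039G/+ and 4.12-fold in WT, the receptor Tlr3 2.84-fold and 2.55-fold, the nuclease Samhd1 4.75-fold and 4.6-fold, and the RNA editor Adar 2.78-fold and 3.12-fold. The adaptor kinase Tbk1 was the gene not called, with ratios of 1.06 and 1.2.

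Of the antiviral effectors, 31 of 31 measured were called higher, 28 of 28 without the 3 genes of the rule. Only 9 of these 28 passed the measuring filter in low cells alone. The others entered through responding cells, where they are high, so the count and the medians were largely fixed by the filter. The medians of the 28 were 2.74 (log2) in Fbn1 C1039G/+ and 3.17 in WT, where all measured genes had -0.02 and -0.03. Ifi44, an interferon-induced cytoplasmic protein, had 168 CPM in Fbn1 C1039G/+ responding cells against 4.35 CPM in low cells of that library, and 75.8 CPM in WT responding cells against 1.55 CPM in WT low cells. Zbp1, a sensor of Z-form nucleic acid linked to cell death, had 127 CPM in Fbn1 C1039G/+ responding cells against 5.76 CPM in low cells of that library, and 113 CPM in WT responding cells against 7.3 CPM in WT low cells. Ifitm3, which blocks virus entry, was already abundant in low cells: it had 4615 CPM in Fbn1 C1039G/+ responding cells against 1564 CPM in low cells of that library, and 2955 CPM in WT responding cells against 1388 CPM in WT low cells.

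Feedback genes were higher in 7 of 8 measured, and 3 of the 8 passed the measuring filter in low cells alone. Usp18, which removes Isg15 from proteins and restrains the receptor, had 83.9 CPM in Fbn1 C1039G/+ responding cells against 5.18 CPM in low cells of that library, and 127 CPM in WT responding cells against 4.0 CPM in WT low cells. Socs1, an inhibitor of JAK kinases, was 1.66-fold and 2.72-fold higher, and Socs3, its relative in interleukin 6 signalling, had ratios of 0.962 and 0.966. The Isg15 conjugation enzymes Uba7 and Ube2l6 were 3.6-fold and 3.73-fold higher in Fbn1 C1039G/+ and 2.87-fold and 3.06-fold in WT.

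All 13 measured guanylate-binding proteins, immunity-related GTPases and related genes of the interferon gamma list were called higher, with medians of 2.77 in Fbn1 C1039G/+ and 3.33 in WT (log2). Only 4 of the 13 passed the measuring filter in low cells alone, so this count was also largely fixed by the filter. These GTPases attack the membranes around intracellular microbes. Iigp1 had 448 CPM in Fbn1 C1039G/+ responding cells against 50.5 CPM in low cells of that library, and 794 CPM in WT responding cells against 68.2 CPM in WT low cells. Gbp6 was 10.6-fold and 10.7-fold higher, and Cd274, which encodes the checkpoint ligand PD-L1, 9.93-fold and 23.7-fold higher, with 0.656 and 1.11 CPM in low cells.

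Antigen presentation by MHC class I was higher in 16 of 17 genes, by less. The heavy chain H2-K1 had 789 CPM in Fbn1 C1039G/+ responding cells against 439.9 CPM in low cells of that library, and 1281 CPM in WT responding cells against 483 CPM in WT low cells. B2m, its light chain, was 1.5-fold and 2.15-fold higher, the immunoproteasome subunit Psmb8 4.96-fold and 3.89-fold, and the peptide transporter Tap1 4.86-fold and 6.49-fold. Erap1, a peptide trimmer, was the gene not called, at 1.46-fold in both libraries.

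MHC class II genes, which are macrophage and dendritic cell genes, were called higher in 5 of 6, and macrophage markers were higher too. Cd74 had 523 CPM in Fbn1 C1039G/+ responding cells against 238 CPM in low cells of that library, and 1714 CPM in WT responding cells against 366 CPM in WT low cells. The 8 macrophage markers summed to 943 CPM in Fbn1 C1039G/+ responding cells against 311 CPM in low cells, and to 1148 CPM in WT responding cells against 442 CPM in WT low cells. Without cells holding at least 3 UMIs of markers of other cell types, Cd74 had 52.2 against 45.1 CPM in Fbn1 C1039G/+ and 243 against 82.0 CPM in WT. None of the 6 MHC class II genes was then called, as a call needs both libraries. In WT, H2-Ab1 still had 137 against 63.7 CPM, H2-Aa 93.5 against 37.0 and H2-Eb1 84.0 against 40.4. In Fbn1 C1039G/+ they had 44.2 against 43.2, 29.8 against 24.4 and 33.4 against 27.2 CPM. H2-DMb1 had 15.2 against 13.1 CPM in WT. The part of macrophage RNA was not tested.

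Of 10 measured chemokines and cytokines, 6 were called higher. Only 6 of the 10 passed the measuring filter in low cells alone, so this count was partly fixed by the filter. Cxcl10, which draws T cells, had 146 CPM in Fbn1 C1039G/+ responding cells against 5.64 CPM in low cells of that library, and 606 CPM in WT responding cells against 18.8 CPM in WT low cells, and the 5 highest cells held 38.8% of its Fbn1 C1039G/+ and 56.2% of its WT UMIs. Its UMIs came from 116 of 627 and 99 of 308 responding cells. Ccl5 was 4.88-fold and 7.77-fold higher. Ccl2, Ccl7 and Cxcl2 were no longer called without cells holding markers of other types: Ccl2 then had 4.82 against 5.36 CPM in Fbn1 C1039G/+ and 122 against 11.3 CPM in WT.

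Of the 257 genes, 181 were outside the interferon and MHC class I lists. Removing cells with other-type markers took out 114 of 627 Fbn1 C1039G/+ and 77 of 308 WT responding cells and left 173 genes called. Of these, 163 were among the 257, 72 of them in the lists and 91 outside. Ly6a (Sca-1), a surface protein of progenitor cells, had 942 CPM in Fbn1 C1039G/+ responding cells against 125 CPM in low cells of that library, and 631 CPM in WT responding cells against 95.8 CPM in WT low cells. Others with known interferon ties were Ly6e, at 783 CPM against 184 in Fbn1 C1039G/+ and 627 against 205 in WT, Sp100, a nuclear body protein, Parp9, an ADP-ribosyltransferase, and the lectin Lgals9. The complement genes C4b and Serping1 and the adhesion molecule Vcam1, which are expressed by fibroblasts without a stimulus, were also among them. Vcam1 had 543 CPM in Fbn1 C1039G/+ responding cells against 332 CPM in low cells of that library, and 560.5 CPM in WT responding cells against 242 CPM in WT low cells. These genes were named after their values were seen.

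Cells between the classes had levels between for Bst2, Iigp1 and Rsad2. Bst2 was at 1459 CPM in responding cells, 631 CPM in cells between and 224 CPM in low cells of Fbn1 C1039G/+, and at 688, 342 and 162 CPM in WT. For Iigp1 the levels were 448, 134 and 50.5 CPM in Fbn1 C1039G/+ and 794, 235 and 68.2 CPM in WT. Rsad2 was steeper at the top, with 58.1, 6.19 and 1.06 CPM in Fbn1 C1039G/+ and 254, 7.8 and 1.11 CPM in WT.

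**Figure D4:**
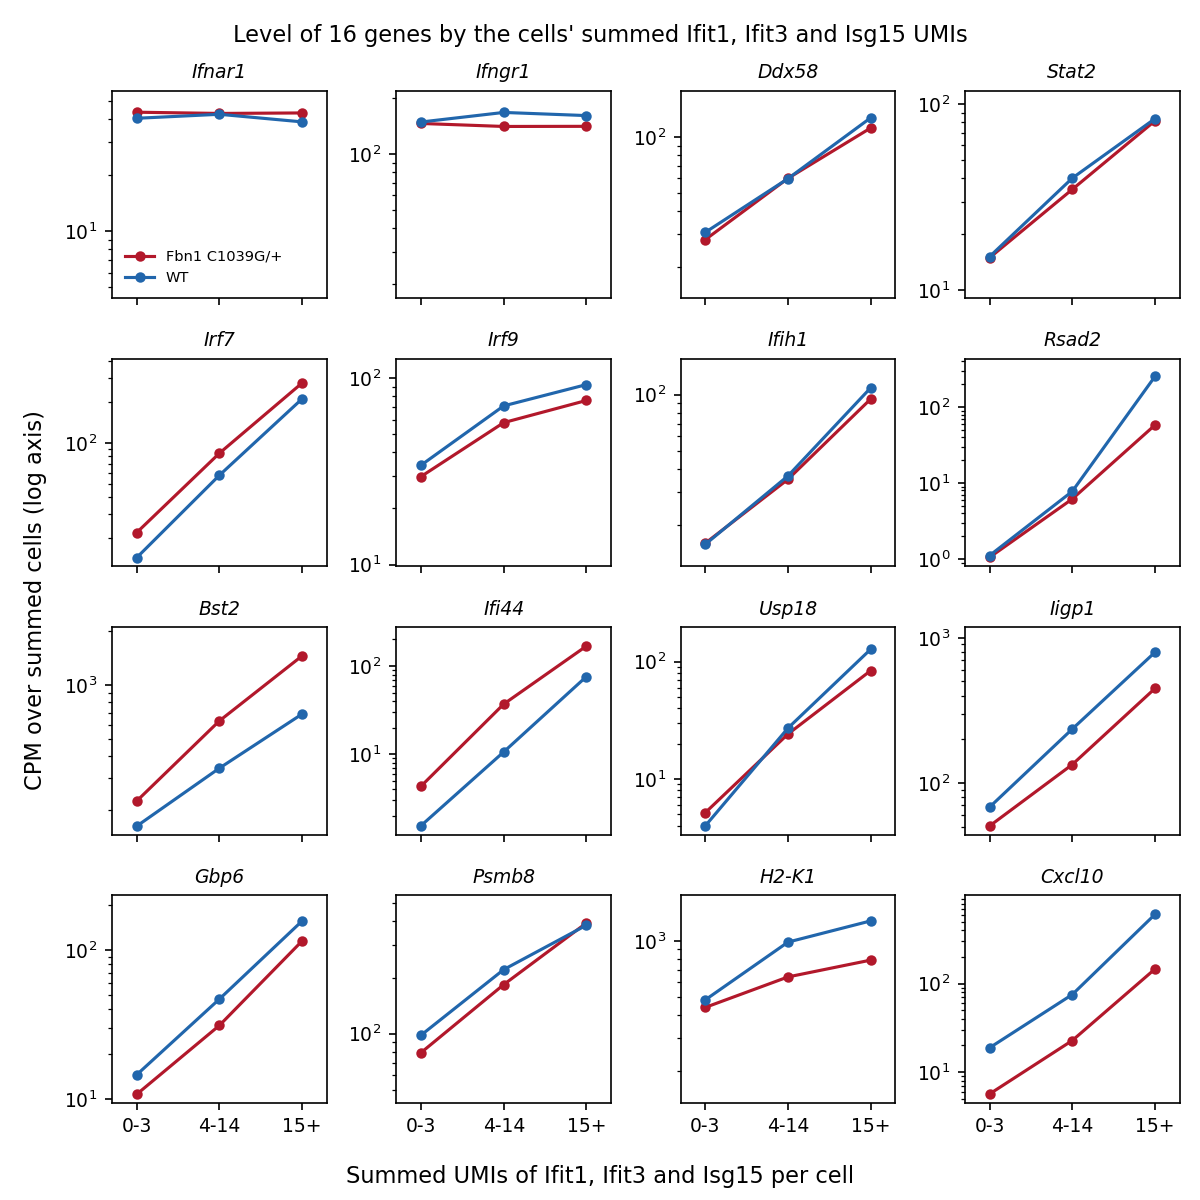
CPM (y, log axis) of 16 genes over the summed cells with 0 to 3, 4 to 14 and at least 15 UMIs of Ifit1, Ifit3 and Isg15 (x), in the Fbn1 C1039G/+ and WT libraries. The receptors Ifnar1 and Ifngr1 stay flat, the other 14 genes climb over the 3 classes, and Rsad2 and Cxcl10 end higher in WT while Bst2 and Ifi44 end higher in Fbn1 C1039G/+.

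Few genes of the valve fibroblast program were called between responding and low cells. None of the 14 identity genes that the rule did not use, such as Lum, Pdgfra, Sox9 and Tbx20, was called in either direction. Col1a1 belongs to the interstitial rule, which both classes had to pass, so its level is given only as a description. It had 4510.1 CPM in Fbn1 C1039G/+ responding cells against 4350.0 CPM in low cells of that library, and 3305 CPM in WT responding cells against 3588 CPM in WT low cells. The collagens counted next include Col1a1, Col1a2 and Col3a1 of that rule. Of 19 measured collagens 0 were called higher and 1 lower: Col8a2, a basement membrane collagen, with 30.7 CPM in Fbn1 C1039G/+ responding cells against 49.6 CPM in low cells of that library, and 30.9 CPM in WT responding cells against 56.9 CPM in WT low cells. None of 19 fibrillin and elastic fibre genes and none of 15 TGF-beta genes was called. Over all measured genes 3.72% were called higher and 0.145% lower, so lists this short would hold few calls at those shares. A call also needs both libraries. Of 12 proteoglycans 1 was called lower, with list medians of -0.19 in Fbn1 C1039G/+ and -0.18 in WT (log2). Fmod, 1 of the 12 and not called, had ratios of 0.893 in Fbn1 C1039G/+ and 0.614 in WT.

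Of the 10 genes called lower, 9 were left by the naming rule, and they included genes of cartilage and bone matrix. Chad (chondroadherin), a matrix protein of cartilage, had 41.7 CPM in Fbn1 C1039G/+ responding cells against 94.2 CPM in low cells of that library, and 78.8 CPM in WT responding cells against 156 CPM in WT low cells. Cilp2, another cartilage matrix gene, was at 0.641 times the low cells' level in Fbn1 C1039G/+ and 0.514 times in WT. Bglap2, the bone matrix protein osteocalcin, had the lowest ratios, 0.117 (0.0930 to 0.145) and 0.154 (0.126 to 0.186), with 27 and 19 responding cells holding a UMI. The other genes named by the rule were Coch, an extracellular matrix protein of the inner ear, the kinase Stk26, the cytokine receptor subunit Cntfr, the neuropeptide Npy and Npnt, an integrin ligand, with ratios between 0.247 and 0.651. Without cells holding at least 3 UMIs of markers of other cell types, Chad, Coch, Stk26 and Npnt were no longer called. They stayed at lower levels in responding than in low cells of both libraries. Thbs4 and Comp, cartilage-type genes used for ranking below, were not called. Without those cells Thbs4 had 92.7 against 86.9 CPM in Fbn1 C1039G/+ and 129 against 102 CPM in WT. Comp had 1070 against 1345 CPM in Fbn1 C1039G/+ and 853 against 1263 CPM in WT.

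Interstitial cells were also ranked by the share of UMIs of state genes, and responding cells were counted in the top 10%. By the cartilage-type genes Chad, Cilp2, Thbs4 and Comp, 5.41% of the top cells were responding in Fbn1 C1039G/+ (3.92% to 7.24%) and 2.25% in WT (1.32% to 3.58%), against 8.07% and 4.08% of all. By Notch3 the shares were 12.2% (10.0% to 14.7%) and 4.50% (3.13% to 6.23%), and by the adventitial-type genes C3, Pi16 and Dpp4 10.7% and 5.56%. By Bglap2 and Nrgn they were 2.70% and 3.84%. Responding cells were thus found in the top cells of every state examined, from 2.70% to 12.2% in Fbn1 C1039G/+ and from 2.25% to 5.56% in WT. Median depth of the top cells ran from 8455 to 11555 UMIs across states in Fbn1 C1039G/+.

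Markers of other cell types were found in responding cells. The 8 macrophage markers had UMIs in both classes, with C1qa at 252 CPM in Fbn1 C1039G/+ responding cells against 72.6 CPM in low cells of that library, and 258 CPM in WT responding cells against 95.8 CPM in WT low cells. Melanocyte markers, 5 in all, summed to 219 CPM in Fbn1 C1039G/+ responding cells and 110 CPM in WT responding cells, against 33.6 and 38.0 CPM in low cells. Erythroid markers, 4 in all, summed to 32.4 CPM in Fbn1 C1039G/+ and 2557 CPM in WT responding cells, against 562 and 826 CPM in low cells, and 5 cells held 99.0% of the Hbb-bs UMIs of WT responding cells. T and NK cell markers summed to 0.213 and 14.3 CPM, against 2.43 and 5.45 CPM in low cells, and Cd3e had no UMI in Fbn1 C1039G/+ responding cells. High doublet scores were held by 10.7% of Fbn1 C1039G/+ responding cells against 8.16% of low cells. In WT the shares were 13.6% and 7.92%.

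Within responding cells, 140 of 6757 measured genes (2.07%) were at least 1.5-fold higher and 250 (3.7%) at least 1.5-fold lower in Fbn1 C1039G/+ than in WT. Among low cells the counts were 52 of 6519 (0.798%) and 86 (1.32%). Responding cells are fewer, and their counts rest on less RNA. Of the genes higher in responding cells and also measured in low cells, 24 of 117 were called higher there too, and of the lower ones 71 of 156.

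Without the 3 genes that chose the cells, the antiviral list had 4 genes higher and 9 lower of 28 measured in responding cells, and 0 of 9 in either direction in low cells. Over all genes measured in responding cells, 2.07% were higher and 3.7% lower. The median of the 28 genes was -0.14 (log2), against 0.04 over all measured genes, and its sign turned with the choice of cells, to 0.048 among cells of 8000 to 16000 UMIs and 0.036 without cells holding other-type markers. Bst2 had 1459 CPM in Fbn1 C1039G/+ and 688 CPM in WT responding cells, a ratio of 2.12 (2.04 to 2.21), and Ifi44 168 CPM in Fbn1 C1039G/+ and 75.8 CPM in WT responding cells, a ratio of 2.22 (1.96 to 2.5). Ifi27l2a had 3060.1 CPM in Fbn1 C1039G/+ and 1928 CPM in WT responding cells, a ratio of 1.59 (1.55 to 1.63), and Ifitm3 4615 CPM in Fbn1 C1039G/+ and 2955 CPM in WT responding cells, a ratio of 1.56 (1.53 to 1.59). In low cells Bst2 was 1.38 times (1.35 to 1.42) the WT level.

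Rsad2, Cmpk2, Ifit2 and Ifit3b were among the 9 lower genes. Rsad2 had 58.1 CPM in Fbn1 C1039G/+ and 254 CPM in WT responding cells, a ratio of 0.229 (0.206 to 0.254), from 545 UMIs in 208 cells and 1084 UMIs in 137 cells, of which the 5 highest cells held 12.7% and 25.3%. Cmpk2, the neighbour of Rsad2 that makes its nucleotide substrate, had 60.7 CPM in Fbn1 C1039G/+ and 137 CPM in WT responding cells, a ratio of 0.444 (0.395 to 0.50). The levels of the rule's own genes are tied to each other by the summed threshold and are given as a description. Ifit1 had 397 CPM in Fbn1 C1039G/+ and 826 CPM in WT responding cells, a ratio of 0.480 (0.458 to 0.503), and Ifit3 767 CPM in Fbn1 C1039G/+ and 1171 CPM in WT responding cells, a ratio of 0.655 (0.632 to 0.679). Isg15 was at 1498 and 1239.6 CPM, a ratio of 1.21 (1.17 to 1.25). In low cells, where the rule bounds them, Ifit1 and Ifit3 had ratios of 0.958 and 0.995.

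**Figure D5:**
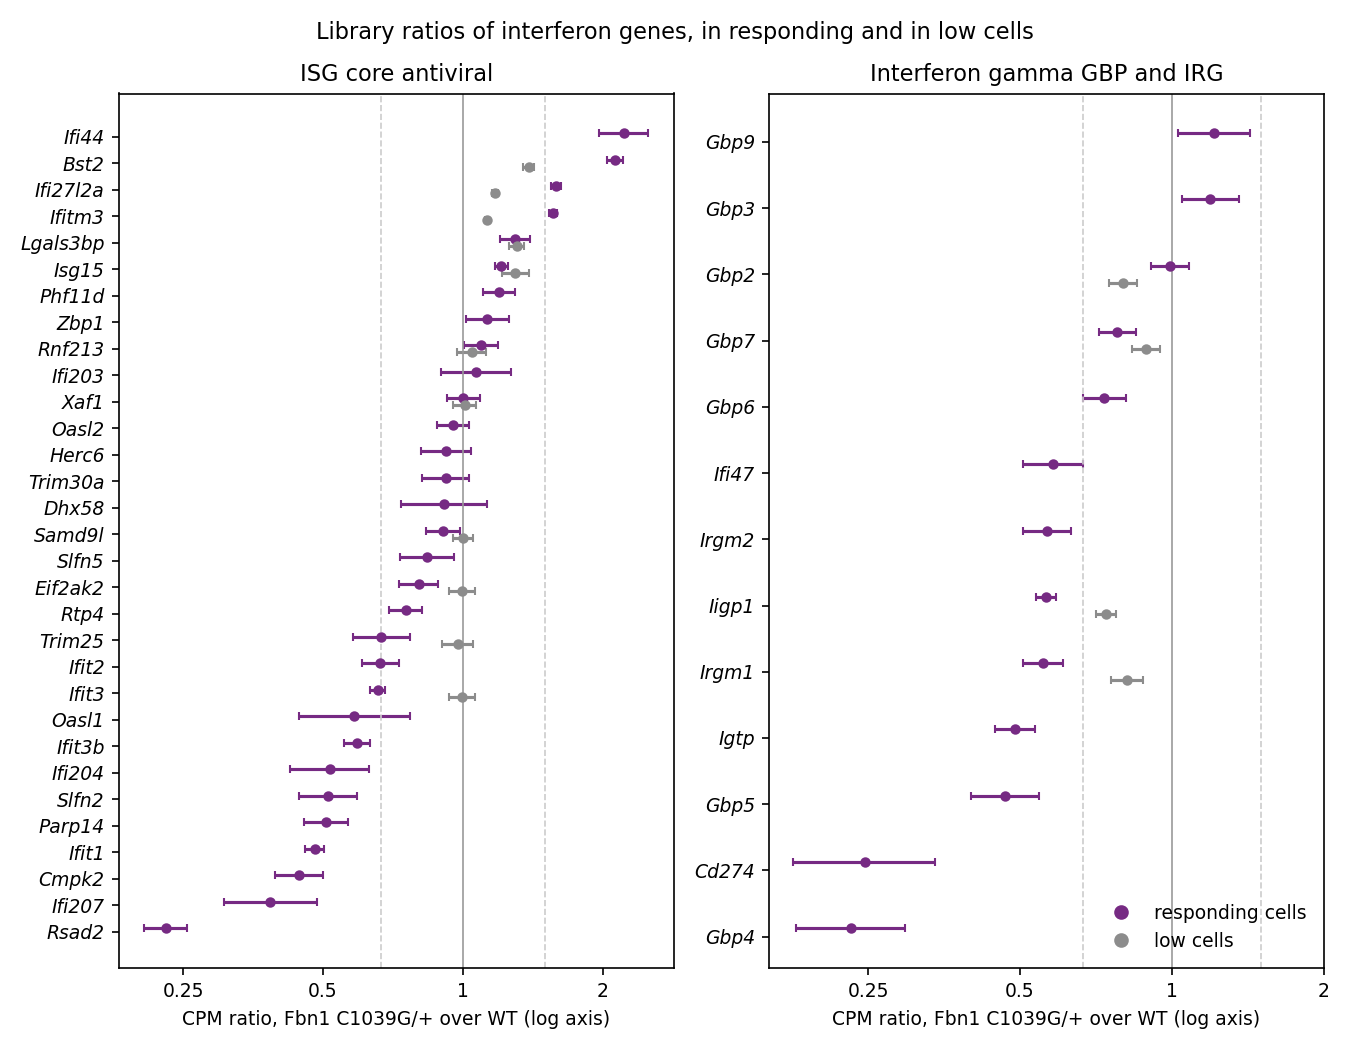
Ratio of CPM in the Fbn1 C1039G/+ library over the WT library (x, log axis) for each measured gene of the antiviral list and of the GTPase list (y), in responding cells and, where measured, in low cells, with exact 95% intervals; dashed lines mark 1.5-fold either way. In responding cells Ifi44 and Bst2 lie above 2 and Rsad2 and Gbp4 below 0.25.

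GTPases and related genes were lower in 8 of 13 and higher in 0 of 13, with a median of -0.82 (log2). Over all genes measured in responding cells, 3.7% were lower and 2.07% higher. Some of the 13, such as Gbp4, passed the measuring filter through WT alone, where they are high, so the count was partly fixed by the filter. Iigp1 had 448 CPM in Fbn1 C1039G/+ and 794 CPM in WT responding cells, a ratio of 0.563 (0.538 to 0.590). Gbp4 had 10.7 CPM in Fbn1 C1039G/+ and 46.1 CPM in WT responding cells, a ratio of 0.231 (0.180 to 0.296), while Gbp2 had 179.8 and 181 CPM, a ratio of 0.992. In low cells 0 of 4 measured genes of the list were called, and Iigp1 had a ratio of 0.742 there. Ifng, the strongest known inducer of these genes, had the T and NK cell UMIs given above, fewer in Fbn1 C1039G/+; whether they bear on it was not tested.

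MHC class II genes were lower in 6 of 6, and in low cells in 5 of 6, beside macrophage marker sums of 943 CPM in Fbn1 C1039G/+ and 1148 CPM in WT responding cells. Without cells holding other-type markers, H2-DMb1 had a ratio of 1.13 and the other 5 were still called lower, with ratios from 0.215 for Cd74 to 0.398 for H2-Eb1. Immediate early and stress genes were lower in 11 and higher in 2 of 19 and, in low cells, lower in 10 and higher in 2 of 20. Over all measured genes 3.7% were lower and 2.07% higher in responding cells, and 1.32% and 0.798% in low cells. The heat shock genes Hspa1a and Hspa1b were higher in responding cells, with ratios of 1.62 (1.4 to 1.88) and 2.44 (1.9 to 3.17), and in low cells, with ratios of 2.20 and 2.70. Fos had 571 and 1274 CPM in responding cells and 493 and 1393 CPM in low cells. These genes answer to tissue digestion, and their part in the other differences was not tested. Cxcl10 had 146 CPM in Fbn1 C1039G/+ and 606 CPM in WT responding cells, a ratio of 0.241 (0.226 to 0.258), and Cxcl9 13.5 and 193 CPM, from 11 and 23 cells, with 88.2% and 87.0% of the UMIs in 5 cells.

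Of 50 matrix genes measured in 3 lists, 5 were higher and 2 lower, where 2.07% of all measured genes were higher and 3.7% lower. The collagens include Col1a1, Col1a2 and Col3a1 of the interstitial rule. Of 19 collagens 2 were higher and 0 lower: Col8a1, at 203 CPM in Fbn1 C1039G/+ and 100.4 CPM in WT responding cells, a ratio of 2.02 (1.82 to 2.25), and Col12a1, at 147 CPM in Fbn1 C1039G/+ and 83.3 CPM in WT responding cells, a ratio of 1.77 (1.57 to 1.99). Col8a1 was also 1.81-fold higher in low cells and Col12a1 1.12-fold. The median log2 ratio was 0.36 for the collagens, 0.24 for the fibrillin and elastic fibre genes and -0.01 for the proteoglycans, against 0.04 over all measured genes. In low cells these medians were 0.21, 0.095 and -0.02, against 0.04 over all measured genes. Of 19 fibrillin and elastic fibre genes, Fbn2 and Ltbp1 were higher, with ratios of 1.51 (1.22 to 1.89) and 1.58 (1.41 to 1.77), and Efemp1 was lower, with a ratio of 0.425 (0.339 to 0.534). Of 12 proteoglycans, Fmod (fibromodulin), which binds collagen fibrils, was higher, with a ratio of 1.56 (1.49 to 1.63), and Chad was lower, with a ratio of 0.529 (0.456 to 0.614). In low cells Efemp1 and Chad were lower too, while Fbn2, Ltbp1 and Fmod did not pass the fold threshold. Ccn2 (CTGF), a target of TGF-beta, had 596 CPM in Fbn1 C1039G/+ and 324 CPM in WT responding cells, a ratio of 1.84 (1.73 to 1.95), and was 1.44-fold higher in low cells.

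The 10 genes with the largest ratios were Nts, Ly6c1, Tyrp1, Gpx3, Sfrp2, Car3, Mlana, Tnnt2, Cst6 and Dio2. Sfrp2, a secreted Wnt modulator of fibroblasts, had 695 CPM in Fbn1 C1039G/+ and 230.4 CPM in WT responding cells, a ratio of 3.02 (2.82 to 3.23), with UMIs in 400 of 627 and 124 of 308 cells. Gpx3, a secreted peroxidase, had 61.8 CPM in Fbn1 C1039G/+ and 18.7 CPM in WT responding cells, a ratio of 3.3 (2.61 to 4.22). Nts, Tyrp1 and Mlana rested on few cells, 92.9% or more of their UMIs lying in 5 cells of each library. Tyrp1 and Mlana are pigment cell genes. Ly6c1 and Dio2 had only 30 and 33 UMIs in 15 and 14 WT responding cells, 66.7% of them in 5 cells for each gene. Cst6 and Tnnt2 had 41 and 47 UMIs in 27 and 28 WT responding cells. The 10 genes with the smallest ratios were Cxcl9, Il1b, Hist1h1b, Gadd45b, Nrgn, Spp1, Top2a, Pclaf, Mcpt4 and Cd83. Gadd45b, a stress-response gene, had 24.6 CPM in Fbn1 C1039G/+ and 161 CPM in WT responding cells, a ratio of 0.153 (0.131 to 0.178), and 27.5 and 133 CPM in low cells. Il1b, an inflammatory cytokine, had 80.6% of its Fbn1 C1039G/+ and 66.9% of its WT UMIs in 5 cells, and Cd83 38.6% and 52.0%. Without cells holding other-type markers neither was lower in Fbn1 C1039G/+: Il1b had 0.301 CPM there and no UMI in WT, and Cd83 had 2.56 and 2.47 CPM, levels that rest on few UMIs. Hist1h1b, Top2a and Pclaf are cell cycle genes with UMIs in 13 or fewer responding cells of either library.

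The library ratios were also taken within each sex call, and whether they differed between the sexes was not tested. Bst2 was 2.05 times the WT level among male responding cells (1.96 to 2.16) and 4.04 times among female ones (3.54 to 4.61). Ifi44 was 2.2 and 4.17 times the WT level. Rsad2 was at 0.226 times the WT level among male cells (0.197 to 0.258) and 0.799 times among female cells (0.578 to 1.11), an interval that includes 1. Its levels were 64.8 and 287 CPM in male and 66.9 and 83.8 CPM in female responding cells of Fbn1 C1039G/+ and WT, so the WT male cells stood apart from the other 3 groups. Ifi27l2a was 1.32 times the WT level among male and 4.74 times among female cells, and Irf7 1.25 and 3.18 times. For Cxcl10 the ratios were 0.129 and 0.684. B2m was on opposite sides, at 0.670 times (0.646 to 0.695) among male and 1.27 times (1.18 to 1.37) among female cells. Cxcl9 had 5.11 CPM in Fbn1 C1039G/+ and 296 CPM in WT male cells, and 62.0 CPM in Fbn1 C1039G/+ and no UMI in WT female cells. The female groups are 107 and 60 cells.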

How the data were processed

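The authors deposited a matrix of whole UMI counts for each library, not normalised. Per the labels, cells were captured with the 10x Genomics 3′ kit. Per the submitters' processing notes the build was mm10 and the tool Cell Ranger 3.1.0, while the file headers name Cell Ranger 5.0.1; the counts do not settle which. Free RNA was not estimated or removed. Doublets were scored with Scrublet (scanpy 1.11.5) and kept; removing the 752 Fbn1 C1039G/+ and 764 WT barcodes with the highest scores is an alternative. UMIs were summed per class and library and scaled to CPM. Ratios have exact conditional binomial intervals, and log2 values use a pseudocount of 1 CPM. Named genes are the 20 largest and up to 15 smallest ratios between responding and low cells, the 10 largest and 10 smallest library ratios, the marker genes, and members of gene lists, without mitochondrial, ribosomal, hemoglobin, receptor-segment, sex-linked and unnamed genes. The cell rule, gene lists and comparisons were chosen with earlier results of these data known. The ratio step was tested on simulated data. Gene positions are from GENCODE release 21 (M21), which matched 32158 of 32285 identifiers, and the promoter windows are RefSeq's. Python 3.11.15, NumPy 2.4.6, SciPy 1.17.1 and pandas 2.3.3 were used. Alternatives were other thresholds of the sum (10 and 20), a rule by share of UMIs, a depth window, a stricter interstitial rule, a mitochondrial limit of 10%, doublet removal, removal of cells with other-type markers, cells of 1 sex, thinned cells, CPM filters, a pseudocount of 10 CPM, and scaling outside the antiviral list or to the median gene.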

Additional observations from a re-analysis of the deposited data

Results flagged for a closer look

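10 genes differed between responding and low cells in opposite directions in the 2 libraries, each by at least 1.5-fold, and were listed for that reason; the difference between the libraries was not tested. Igfbp5, a secreted binding protein of insulin-like growth factors, had a log2 ratio of -1.01 in Fbn1 C1039G/+ and 0.63 in WT. For Sfrp2 the ratios were 0.75 and -0.64, for Aldh1a3, a retinaldehyde dehydrogenase, 0.64 and -0.59, and for Aqp2, a water channel, 0.70 and -1.12. Spp1 (osteopontin) had -0.74 in Fbn1 C1039G/+ and 0.82 in WT, Nrgn -1.15 and 0.61, and the mast cell protease Mcpt4 -1.02 and 0.84. The cell cycle genes Prc1, Top2a and Hist1h1b had -0.94, -1.16 and -1.40 in Fbn1 C1039G/+ and 0.86, 1.17 and 1.14 in WT. The WT direction of several of these genes turned with the choice of cells. Among male cells it was -0.58 for Nrgn, -0.07 for Spp1 and -0.43 for Hist1h1b, and among female cells -0.52 for Mcpt4, -3.06 for Top2a and -2.72 for Hist1h1b. Without cells holding other-type markers it was -0.11 for Nrgn, -0.36 for Mcpt4 and -0.11 for Hist1h1b. The 5 highest cells held 77.9% of the WT Spp1 UMIs. In WT responding cells the 5 highest cells held 91.0% of the Top2a and 100% of the Hist1h1b UMIs. Igfbp5 had 114 CPM in Fbn1 C1039G/+ responding cells and 425 CPM in WT responding cells, against 231 and 274 CPM in low cells. Hemoglobin genes, also opposite, are left out of the 10: Hbb-bs had 20.9 CPM in Fbn1 C1039G/+ and 1791 CPM in WT responding cells, with 99.0% of the WT UMIs in 5 cells.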

How the results depend on the processing

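Of 136 alternative values of the main results 112 stayed within the limits set, 22 moved and 2 turned; of 980 values of the other results, single genes among them, 608 stayed, 350 moved and 22 turned. No paired analysis was possible because each genotype has 1 library, so the groups share only 1 replicate number. The higher share in Fbn1 C1039G/+ held in each alternative, with a ratio of 1.69 instead of 1.98 among female cells. The male share over the female share in Fbn1 C1039G/+, 4.40, was 3.20 with at least 10 UMIs and 5.65 with at least 20, both chosen after seeing the data.

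The count of genes lower in responding cells, 10, was 22 by the share rule, 23 in the depth window, 17 with the stricter interstitial rule, 19 without high doublet scores, 46 in female cells, 17 in male cells and 38 with no CPM filter. The count of higher genes, 257, was 152 at 50 CPM and 591 with no filter. The library counts in responding cells, 140 higher and 250 lower, were 64 and 132 at 50 CPM and 328 and 554 with no filter, and 482 genes were higher in female cells. In low cells, 52 higher and 86 lower became 26 and 49 at 50 CPM and 381 and 638 with no filter, and 89 were higher in female cells. Fewer or more genes pass these filters; for the other settings the cause was not tested.

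The antiviral list's median library ratio, -0.14, was 0.048 in the depth window and 0.036 without other-type cells, a setting chosen after seeing the data. Single genes that turned were those of few cells, in log2. Nts had -0.23 in the depth window, -0.51 without macrophage and endothelial markers, -3.46 in male cells and -0.23 without other-type cells. Tyrp1 had -0.47 in the depth window, -1.91 without high doublet scores, -2.85 in male cells and -0.39 without other-type cells, and Mlana had -2.97, -2.74, -2.53 and -0.23 under those 4 settings. Cxcl9 had 0.74 in the depth window and 5.98 in female cells, Cd83 0.28 in the depth window and, without other-type cells, 0.036, and Il1b 0.91 without macrophage and endothelial markers and 0.38 without other-type cells. In female cells Hist1h1b, Top2a and Pclaf had 2.56, 3.44 and 3.86, and Coch in WT 1.23 between responding and low cells. Depth limits genes under 20 CPM, and the 60 WT female responding cells limit the values by sex.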
